A study of Mus musculus with 8 samples.

Results

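The Krüppel-like factors (KLF) examined here are 10 transcription factor genes, Klf2, Klf3, Klf4, Klf5, Klf6, Klf7, Klf9, Klf10, Klf13 and Klf15. They were taken by gene symbol from a table of 53801 mouse genes, and all 10 were found, had reads in every library and passed the filter on low counts. RNA was sequenced from stromal cells of MO5 tumours, which arise from B16 melanoma cells with an ovalbumin gene and were grown under the skin of ADAM12-GFP mice. The mice were of C57Bl/6 background and aged 8 to 12 weeks, and cells were taken at day 8 of tumour growth. In this strain a bacterial artificial chromosome carries Cre and GFP under the control of Adam12, so GFP reports the transgene and not the ADAM12 protein. Cells with PDGFRα and PDPN and without CD45 and CD31 were sorted into GFP+ (ADAM12+) and GFP- (ADAM12-) cells, 4 libraries each. Both groups came from mice with the same transgene and kind of tumour and went through the same dissociation and gating protocol. By the statistical methods of the study, a replicate number counts mice unless stated otherwise. The labels do not say which GFP+ and GFP- libraries, if any, came from the same mouse.

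KLF proteins bind GC-rich and CACCC elements of DNA through conserved zinc fingers at their carboxyl end, and the rest of the protein, which varies between members, recruits activators or repressors. Klf2, Klf4, Klf6 and Klf10 are known as genes that growth factors, stress or flow induce quickly, and Klf9 and Klf15 as targets of the glucocorticoid receptor. In fibroblasts and other mesenchymal cells the family takes part in the control of growth, differentiation and inflammation.

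The sequence before the transcription start is shown for Klf9, Klf6 and Klf4, whose transcripts were higher in GFP+ cells, and for Klf2, a close relative of Klf4 that was not called. Each run is 120 bases of RefSeq sequence on GRCm38.p6 that end just before the RefSeq or the GENCODE start, whichever lies further upstream (the GENCODE start for Klf6 and Klf2), read 5′ to 3′ on the strand of the gene, and capitals mark a GC box or a CACCC element on either strand.
Klf9: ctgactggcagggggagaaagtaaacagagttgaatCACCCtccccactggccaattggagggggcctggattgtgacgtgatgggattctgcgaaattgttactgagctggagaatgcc
Klf6: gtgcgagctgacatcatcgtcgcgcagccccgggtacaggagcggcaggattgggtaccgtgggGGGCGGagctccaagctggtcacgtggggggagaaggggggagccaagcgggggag
Klf4: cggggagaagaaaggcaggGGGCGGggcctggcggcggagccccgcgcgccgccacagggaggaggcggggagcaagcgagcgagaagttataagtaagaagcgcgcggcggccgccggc
Klf2: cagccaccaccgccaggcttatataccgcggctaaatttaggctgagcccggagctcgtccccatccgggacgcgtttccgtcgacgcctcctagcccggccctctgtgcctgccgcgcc
The Klf9 run is chr19:23141106-23141225 (plus strand), the Klf6 run chr13:5861362-5861481 (plus), the Klf4 run chr4:55532476-55532595 (minus) and the Klf2 run chr8:72318913-72319032 (plus). Motifs were searched on both strands of the 250 bases before the RefSeq start in the 8 members with an entry, all but Klf5 and Klf10, and matches of different motifs may overlap. A GC box (GGGCGG) was present in 7 of 8, against 32.7% of 32851 promoters, and a CACCC element (CACCC) in 6 of 8, against 52.0%. Klf4 had 4 GC boxes and Klf9 had 0. The cAMP response element (TGACGTCA) occurred in 0 of 8 and in 1.55% of promoters, and the AP-1 site (TGACTCA) in 0 of 8 and in 4.46%. The TATA box (TATAAA) was likewise in 0 of 8 and in 12.4% of promoters, and the CArG box in 0 of 8 and in 1.47%.

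Libraries held 883144 to 31666734 assigned reads. GFP- replicate 3 was the shallowest, and 1 of its reads was worth 11 normalised counts (counts divided by the size factor of the library) against 0.335 to 1.39 in the other libraries. Of 10 fibroblast genes, abundant in both groups, 7 rose (5 with edgeR) and 9 did not overlap between groups, with a median log2 fold change of 0.78. Pdgfra rose from 5774 ± 978 to 14371 ± 1526 normalised counts (SD, n = 4 each). Adam12, whose control regions drive the reporter, rose by a log2 fold change of 0.75 ± 0.24 (SE, DESeq2 adjusted p 0.0266), a call that was lost with edgeR (adjusted p 0.0643). Melanocyte genes summed to 26732 to 77481 normalised counts in GFP- and 4559 to 12307 in GFP+ libraries, and 12 of 12 fell (11 with edgeR). The part of fibroblast and melanocyte transcripts in the KLF values was not tested. In bulk libraries, fewer cells of a type and less RNA per cell cannot be told apart.

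Some KLF transcripts were more abundant in ADAM12+ cells. Of the 10 members, 4 rose (Klf9, Klf5, Klf6 and Klf4) and 0 fell at a DESeq2 adjusted p under 0.05, where 4.66% of 15283 tested genes rose and 4.76% fell. All 10 fitted log2 fold changes were above 0, that of Klf15 by only 0.04, and their median was 0.48, against -0.01 over all tested genes and 0.78 over the fibroblast genes. The members were chosen with earlier results of these data known, so these counts depend in part on that choice. Of the 4 tested KLF genes outside the list, 0 had a log2 fold change above 0, and their median was -0.5. In 5 members every GFP+ library lay above every GFP- library, which held for 6.37% of tested genes. With edgeR 2 members rose (Klf9 and Klf5) and 0 fell, where 2.83% of 14323 genes rose and 2.28% fell, and with limma voom 3 (Klf9, Klf6 and Klf4). In a single draw of simulated libraries of this design the share of false calls was several times the threshold with DESeq2 and stayed under it with edgeR. The simulated spread of each gene came from the DESeq2 fit, so these shares need not hold for the real libraries. The DESeq2 counts over members and over all genes may still hold more false calls than an adjusted p under 0.05 implies. Klf9 was called by all 3 tools. Klf6 and Klf4 were called by DESeq2 and limma voom but not by edgeR, and Klf5 by DESeq2 and edgeR but not by limma voom. The count was also 2 without GFP- replicate 3, without GFP+ replicate 1 or without GFP+ replicate 3. Summed over the members, normalised counts were 19653, 21951, 22073 and 20174 in GFP- replicates 1 to 4, and 37514, 28211, 34646 and 26298 in GFP+ replicates 1 to 4. Every GFP+ sum lay above every GFP- sum, and GFP+ replicate 1 had the highest level of 6 members.

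**Figure D1:**
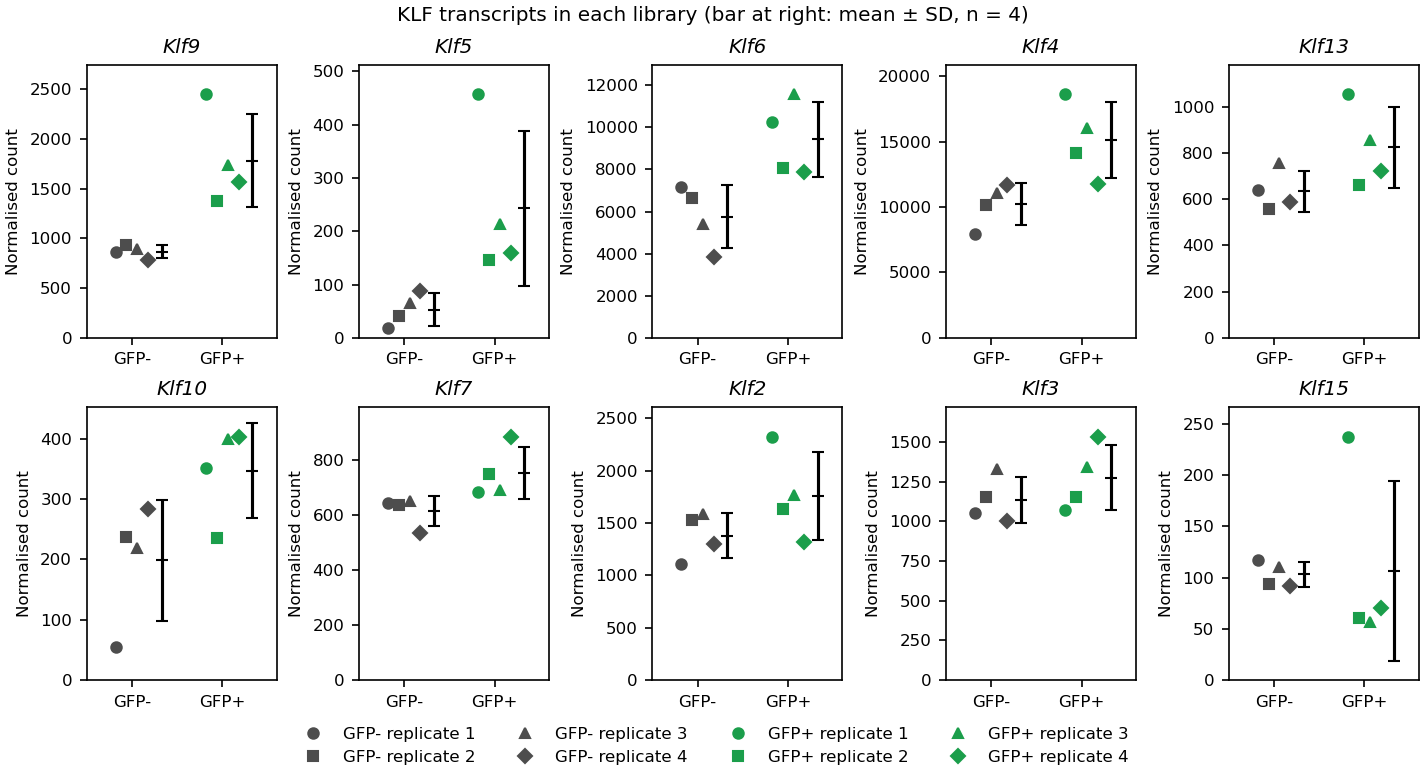
Normalised counts (y axis) of each KLF member in the 4 GFP- and 4 GFP+ libraries, with marker shape for the replicate and the bar at the right of each group for mean ± SD. The groups do not overlap for Klf4, Klf5, Klf6, Klf7 and Klf9, and GFP+ replicate 1 is the highest library for Klf2, Klf4, Klf5, Klf9, Klf13 and Klf15.

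Klf9, a basic-type KLF that acts mainly as a repressor and is a known glucocorticoid target, had the smallest adjusted p of the members. It lies at chr19:23141226-23168134 on the plus strand (ENSMUSG00000033863). Its normalised counts were 859, 937, 890 and 783 in GFP- replicates 1 to 4, and 2448, 1373, 1738 and 1567 in GFP+ replicates 1 to 4. The GFP- libraries were close together, all GFP+ libraries were above them, and replicate 1 was the highest. Group means (± SD, n = 4) were 867 ± 64.7 in GFP- and 1781 ± 469 in GFP+ cells. The rise was 2.06-fold, or 1.04 ± 0.21 (SE) on the log2 scale (95% interval of the fold 1.54 to 2.75, DESeq2 adjusted p 5.79e-05). It was called by edgeR (adjusted p 0.00638), by limma voom (adjusted p 0.00519) and in all 8 fits that left out 1 library, with a highest DESeq2 adjusted p of 0.00119.

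Klf5, an activator known from proliferating epithelium, smooth muscle and early adipocyte differentiation, had the largest fold change of the members and the lowest level per kb in GFP- cells. It lies at chr14:99298691-99315036 on the plus strand (ENSMUSG00000005148). Normalised counts were 17.6, 40.1, 65.9 and 88.2 in GFP- replicates 1 to 4, and 457, 145, 213 and 159 in GFP+ replicates 1 to 4. The lowest GFP+ library was above the highest GFP- library, although the GFP- values rest on few reads, 13, 56, 6 and 168. Group means (± SD, n = 4) were 53.0 ± 30.7 in GFP- and 243 ± 145 in GFP+ cells. The rise was 4.66-fold, or 2.22 ± 0.54 (SE) on the log2 scale (95% interval of the fold 2.23 to 9.74, DESeq2 adjusted p 0.00127). The call held with edgeR (adjusted p 0.0323) and without any 1 library (DESeq2 adjusted p at most 0.014), but not with limma voom (log2 fold change 1.86, adjusted p 0.0662). Without both libraries numbered 1 the DESeq2 log2 fold change was 1.42 (adjusted p 0.0162). Genes of keratinocytes, which express Klf4 and Klf5, summed to 43.9 to 396 normalised counts in GFP- and 43.1 to 111 in GFP+ libraries, with 0 of 5 tested genes called. The median log2 fold change of the tested keratinocyte genes was -1.77, with 1 of 5 above 0. Krt5 was at 0 in every GFP+ library. Krt14 was at 34.7 in GFP+ replicate 1 and 109 in GFP- replicate 1, and Krt10 was at 18.8 to 60.7 in GFP+ and 5.43 to 33.0 in GFP- libraries. Adipocyte genes summed to 67.2 to 217 and 161 to 652, of which Fabp4 rose (DESeq2 adjusted p 0.00291), and Adipoq was at most 4.03 in any library. Plin1 was at 0 to 1.58 in GFP- and 1.67 to 18.4 in GFP+ libraries, with no overlap (DESeq2 adjusted p 0.112). The part of keratinocyte and adipocyte transcripts in the Klf5 value was not tested.

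Klf6, a widely expressed early response gene linked to tissue repair, lies at chr13:5861482-5870394 on the plus strand (ENSMUSG00000000078). It was at 7184, 6628, 5395 and 3842 normalised counts in GFP- replicates 1 to 4, and at 10265, 8048, 11557 and 7855 in GFP+ replicates 1 to 4. The groups did not overlap, and GFP- replicate 4, which held the most melanocyte transcripts (77481) and the fewest fibroblast transcripts, was the lowest. Among GFP- libraries, Klf3, Klf7, Klf9 and Klf15 were also lowest in replicate 4, while Klf4, Klf5 and Klf10 were highest there (11660, 88.2 and 284). Group means (± SD, n = 4) were 5762 ± 1482 in GFP- and 9431 ± 1790 in GFP+ cells. The rise was 1.64-fold, or 0.71 ± 0.23 (SE) on the log2 scale (95% interval of the fold 1.2 to 2.24, DESeq2 adjusted p 0.0271). The difference missed the threshold with edgeR (adjusted p 0.0673). It did so also with DESeq2 without GFP- replicate 3 (adjusted p 0.0732), GFP- replicate 4 (0.0713), GFP+ replicate 1 (0.0667) or GFP+ replicate 3 (0.144).

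Klf4, a pluripotency and differentiation factor that quiescent fibroblasts also express, was the most abundant member and lies at chr4:55527143-55532466 on the minus strand (ENSMUSG00000003032). It was at 7977, 10142, 11075 and 11660 normalised counts in GFP- replicates 1 to 4, and at 18623, 14151, 16028 and 11783 in GFP+ replicates 1 to 4. The groups were separated only narrowly, between GFP- and GFP+ replicate 4. Group means (± SD, n = 4) were 10214 ± 1617 in GFP- and 15146 ± 2897 in GFP+ cells. The rise was 1.48-fold, or 0.57 ± 0.19 (SE) on the log2 scale (95% interval of the fold 1.14 to 1.93, DESeq2 adjusted p 0.0387). The difference missed the threshold with edgeR (adjusted p 0.0798) and in 6 of the 8 fits that left out 1 library. The DESeq2 adjusted p was 0.134, 0.106 and 0.0502 without GFP- replicate 1, 2 or 3, and 0.118, 0.0675 and 0.141 without GFP+ replicate 1, 2 or 3. Without both libraries numbered 1, which had fewer genes with a count (16138 and 16313) than other libraries except GFP- replicate 3, the log2 fold change was 0.37 (DESeq2 adjusted p 0.277). Pericyte and smooth muscle genes, the latter known to express Klf4, summed to 771 to 1340 normalised counts in GFP- and 760 to 1673 in GFP+ libraries. Abcc9 was higher (DESeq2 adjusted p 0.0493), but its groups overlapped and the call was lost with edgeR (adjusted p 0.0975). Mcam was lower (DESeq2 adjusted p 0.000593, edgeR adjusted p 0.0341), and its libraries ran in the order of the melanocyte sum within each group. The part of pericyte and smooth muscle transcripts in the Klf4 value was not tested.

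**Figure D2:**
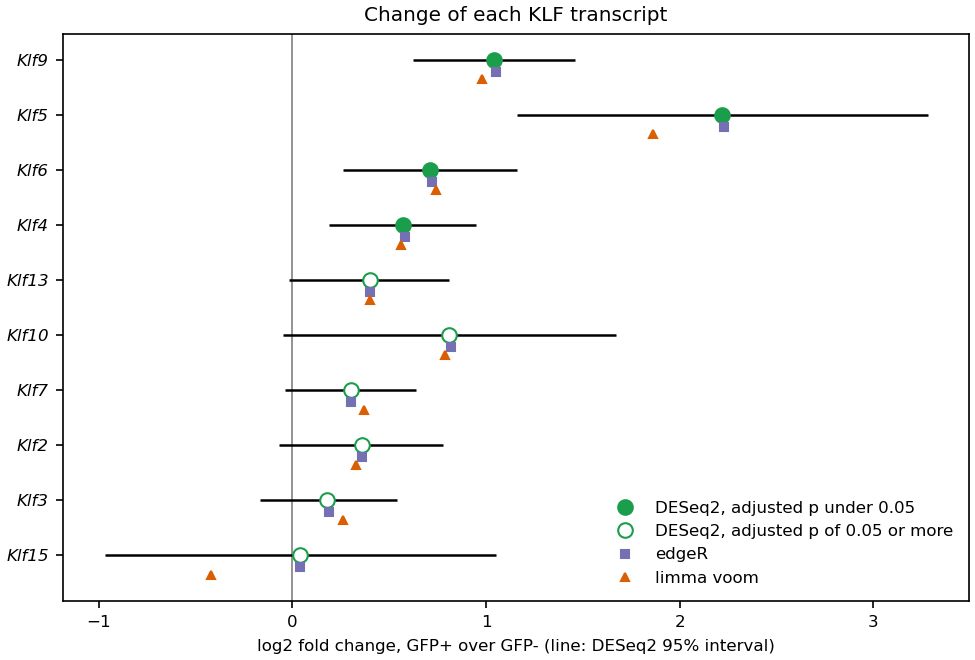
DESeq2 log2 fold change of each KLF member, GFP+ over GFP- (x axis), with its 95% interval as a line, filled where the adjusted p was under 0.05, and the edgeR and limma voom estimates as squares and triangles. The intervals of Klf5, Klf9, Klf6 and Klf4 lie above 0, and the limma voom estimate of Klf15 lies below 0 at -0.42.

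**Figure D3:**
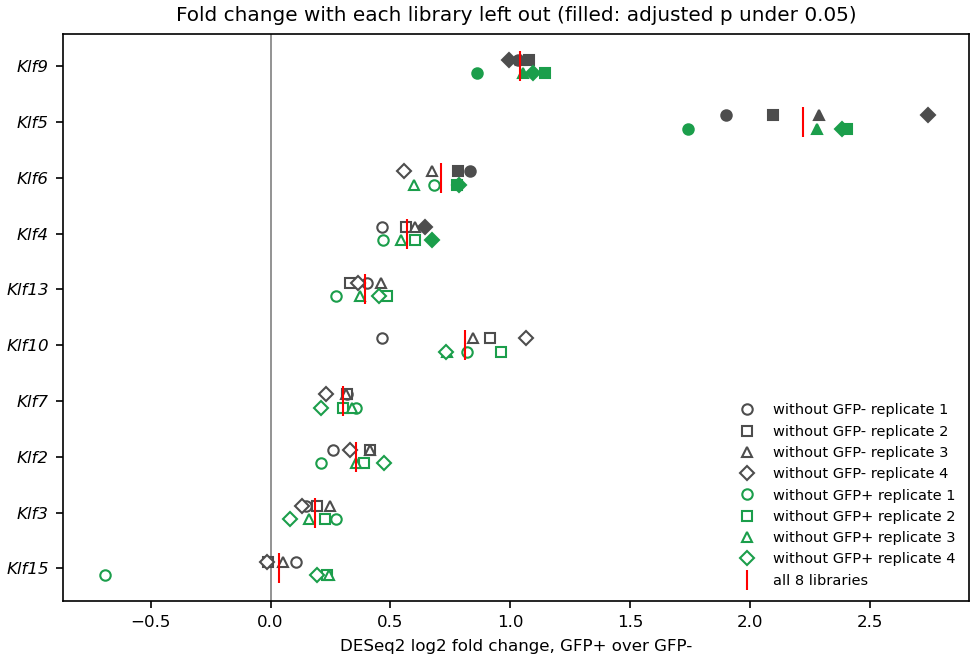
DESeq2 log2 fold change of each member (x axis) in 8 fits that each leave out 1 library, filled where the adjusted p was under 0.05, with a red mark for all 8 libraries. Klf9 and Klf5 stay filled in 8 of 8 fits, Klf6 in 4 and Klf4 in 2, and Klf15 moves to -0.69 without GFP+ replicate 1.

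Klf2, which restrains inflammation in endothelium and keeps T cells quiescent, is at chr8:72319033-72321656 on the plus strand (ENSMUSG00000055148). Its normalised counts were 1109.8, 1529, 1582 and 1299.5 in GFP- replicates 1 to 4, and 2325, 1631, 1764 and 1321 in GFP+ replicates 1 to 4. The groups overlapped through GFP+ replicate 4, and the fold was 1.28 (95% interval 0.953 to 1.72, DESeq2 adjusted p 0.358). Endothelial genes summed to 1859 to 3087 normalised counts in GFP- and 2131 to 3742 in GFP+ libraries, with 0 of 9 tested higher and Vwf lower (log2 fold change -3.30, DESeq2 adjusted p 3.77e-05). Leukocyte genes summed to 2750 to 10185 and 1901 to 7917, with 0 of 11 tested genes called. Ptprc, which encodes CD45, reached 1703 in GFP- replicate 3 and 1383 in GFP+ replicate 2, and the part of leukocyte transcripts in the Klf2 value was not tested.

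Klf10, an early TGF-β response gene, is at chr15:38291463-38300706 on the minus strand (ENSMUSG00000037465). Normalised counts were 54.3, 236, 219.7 and 284 in GFP- replicates 1 to 4, and 351, 235, 399 and 404 in GFP+ replicates 1 to 4. GFP- replicate 1 was far below the rest, and GFP+ replicate 2 lay among the GFP- libraries. The fold was 1.75 with a wide 95% interval of 0.965 to 3.18 (DESeq2 adjusted p 0.279), and the log2 fold change went from 0.81 to 0.46 without GFP- replicate 1.

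Klf13, a basic-type KLF close to Klf9 in sequence and known from T cell chemokine expression, is at chr7:63886351-63938915 on the minus strand (ENSMUSG00000052040). Its normalised counts were 639, 556, 758 and 587 in GFP- replicates 1 to 4, and 1054, 664, 858 and 722 in GFP+ replicates 1 to 4. GFP- replicate 3 lay above 2 of the GFP+ libraries, and the fold was 1.32 (95% interval 0.988 to 1.75, DESeq2 adjusted p 0.266).

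Klf7, known from neuronal development and as an inhibitor of adipocyte differentiation, is at chr1:64029447-64122282 on the minus strand (ENSMUSG00000025959). It was at 642, 636, 648 and 534 normalised counts in GFP- replicates 1 to 4, and at 682, 748, 691 and 884 in GFP+ replicates 1 to 4. Every GFP+ library was above every GFP- library, but by little, and the fold was 1.23 (95% interval 0.972 to 1.56, DESeq2 adjusted p 0.325). An antisense gene, Gm26649, shares 38.2% of the 50-base stretches of Klf7 exons. Counting used the strand, and Gm26649 had a mean of 9.42 normalised counts.

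Klf3, a repressor that acts through CtBP, is at chr5:64803388-64832901 on the plus strand (ENSMUSG00000029178). Normalised counts were 1054, 1154, 1329 and 1005 in GFP- replicates 1 to 4, and 1072, 1156, 1341 and 1535 in GFP+ replicates 1 to 4. The groups overlapped, with GFP+ replicates 3 and 4 above every GFP- library, and the fold was 1.14 (95% interval 0.888 to 1.45, DESeq2 adjusted p 0.626).

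Klf15, a metabolic regulator and glucocorticoid target, is at chr6:90462576-90475238 on the plus strand (ENSMUSG00000030087) and had the widest relative spread in GFP+ cells (SD 82.7% of the mean). It was at 117, 93.9, 109.9 and 91.9 normalised counts in GFP- replicates 1 to 4, and at 237, 60.2, 56.8 and 69.8 in GFP+ replicates 1 to 4. GFP+ replicate 1 was above, and the other GFP+ libraries below, every GFP- library. The fold was 1.03 (95% interval 0.509 to 2.07, DESeq2 adjusted p 0.983), and the log2 fold change turned to -0.69 without GFP+ replicate 1 (DESeq2 adjusted p 0.244). Leaving out GFP- replicate 2 or 4 also turned it, to -0.01 and -0.015.

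Levels between members were compared as normalised counts per kb of merged exons. Klf4 stood first in both groups, at 3350 ± 530 in GFP- and 4968 ± 950 in GFP+ libraries (SD, n = 4 each), above 99.6% of tested genes by its mean over the libraries. Klf6 followed at 1312 ± 338 and 2148 ± 408, then Klf2 at 747 ± 118 and 953 ± 227, then Klf9 at 180 ± 13.4 and 370 ± 97.4. These 4 and the next member were separated in 4 of 4 libraries of each group, with no overlap between neighbours. Klf3, Klf13, Klf7 and Klf10 followed in that order in both groups, from 101 to 47.5 in GFP- and from 113 to 83.1 in GFP+ libraries, and neighbours among them overlapped. Klf5 was last in GFP- cells at 10.2 ± 5.9, with no overlap with Klf15 at 36.9 ± 4.34. In GFP+ cells Klf5, at 46.8 ± 27.9, was above Klf15, at 38.0 ± 31.4, in each of 4 libraries, although their ranges overlapped. Klf4 and Klf6 together held 74.6% to 79.6% of the normalised counts of the 10 members.

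**Figure D4:**
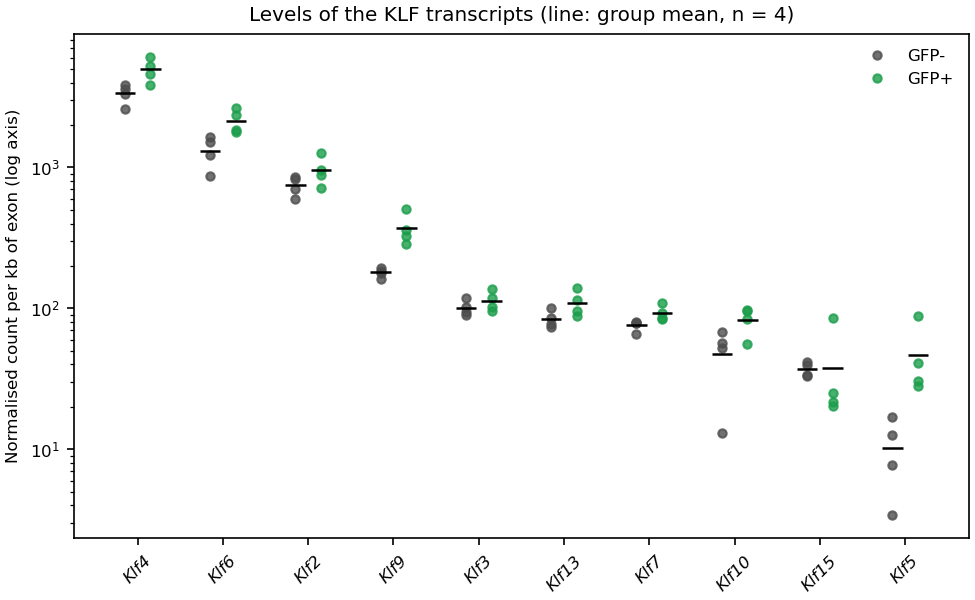
Normalised counts per kb of merged exon (y axis, log scale) of each KLF member in GFP- and GFP+ libraries, 1 point a library and a line at the group mean. Klf4, Klf6, Klf2 and Klf9 lead in that order in both groups, and Klf5 moves from 10.2 in GFP- to 46.8 in GFP+ cells.

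Related genes did not all move with the members. Of the 7 other KLF genes, 4 were tested and 0 called, and the 4 log2 fold changes were -1.21 for Klf8, -0.74 for Klf11, -0.25 for Klf16 and -0.16 for Klf12, with DESeq2 adjusted p of 0.594, 0.592, 0.727 and 0.883. Klf1 and Klf14 had at most 3.77 normalised counts in any library and were not tested, and Klf17 was at 0 in all. Among the 9 SP genes, whose products share the zinc fingers and GC box binding of KLF proteins, 5 were tested and Sp3 alone rose. Sp3 was at 689, 847, 769 and 792 normalised counts in GFP- replicates 1 to 4, and at 1687, 1115, 1263 and 1236 in GFP+ replicates 1 to 4, with no overlap. Its log2 fold change was 0.77 ± 0.19 (SE, DESeq2 adjusted p 0.0012, edgeR adjusted p 0.0198), while Sp1, the general GC box activator, had 0.18 (DESeq2 adjusted p 0.51).

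Genes upstream of KLF transcription were examined as lists. Of 12 glucocorticoid receptor genes and targets, the pathway that induces Klf9 and Klf15, 5 rose and 0 fell, with a median log2 fold change of 0.46, and edgeR called 2. Sgk1, a kinase of salt and stress responses, rose by 1.29 ± 0.33 on the log2 scale (SE, DESeq2 adjusted p 0.00266), Mt2, a metallothionein, by 0.91 (adjusted p 0.0246) and Zbtb16 by 0.84 (adjusted p 0.0204). The groups overlapped for Mt2 and Zbtb16, and both calls were lost with edgeR (adjusted p 0.063 and 0.0609). Nr3c1, the receptor itself, named here after its values were seen, rose by 0.58 ± 0.16 on the log2 scale with no overlap (SE, DESeq2 adjusted p 0.0052, edgeR adjusted p 0.0392). Fkbp5 and Tsc22d3, classical targets of the receptor named here after their values were seen, had -0.21 and 0.17 (DESeq2 adjusted p 0.814 and 0.88). Of 12 genes of the ERK5 and MEF2 route, which drives Klf2 and Klf4 in endothelium, 1 rose, the kinase Map3k2 (log2 fold change 0.64 ± 0.14, SE, DESeq2 adjusted p 0.000286), and the median was 0.03. Of 10 TGF-β and SMAD genes, upstream of Klf10, 0 were called and the median was 0.29. Klf9 also follows the circadian clock, and of 14 tested clock genes 1 rose and 3 fell. Npas2 rose by 1.09 (DESeq2 adjusted p 0.0415, edgeR adjusted p 0.116), and the output factor Hlf, the repressor Bhlhe41 and the output factor Tef had -4.19, -2.64 and -1.32 (DESeq2 adjusted p 2.27e-07, 1.3e-07 and 0.00621). With edgeR 0 clock genes rose and 2 fell, and Tef was lost (adjusted p 0.0533). Among GFP- libraries Bhlhe41 was highest in replicate 4 (1323 normalised counts), as was the melanocyte sum (77481), while Hlf and Tef were not (35.2 and 350 there). The part of melanocyte transcripts in the clock gene values was not tested.

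Early response genes, which enzymatic dissociation of tissue can also induce, were examined in the same way. Of 30 such genes, of which Dusp1 is also on the glucocorticoid list, 15 rose and 0 fell, with a median log2 fold change of 0.60, and edgeR called 10. Egr2 had 1.02, Fosb 0.93 and Zfp36 0.87 (DESeq2 adjusted p 0.00337, 0.000119 and 0.000367). Their sum was 133341 to 146417 normalised counts in GFP- and 182540 to 231556 in GFP+ libraries, with no overlap. From the highest to the lowest library, this sum and that of the KLF members both ran 1, 3, 2 and 4 among GFP+ replicates, which is also the order from the shallowest to the deepest library. The fibroblast and endothelial sums ran the same way there, and the melanocyte sum in reverse. Among GFP- replicates the KLF sum ran 3, 2, 4 and 1, as did the endothelial sum. The early response sum ran 3, 1, 2 and 4 there, again from the shallowest to the deepest library, the fibroblast sum 1, 2, 3 and 4, and the melanocyte sum 4, 1, 2 and 3. Tek and Kdr made up most of the endothelial sum in each library. Cdh5, Tie1 and Emcn were at most 29.4, 6.3 and 8.93 normalised counts in any library, while Pecam1, which encodes CD31, reached 516. The part of dissociation, depth or endothelial transcripts in the KLF values was not tested. Of 19 tested genes described as KLF targets, 1 rose and 0 fell, with a median of 0.12. It was Cebpb, a factor of adipocyte and inflammatory programmes (log2 fold change 0.62 ± 0.17, SE, DESeq2 adjusted p 0.00534).

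**Figure D5:**
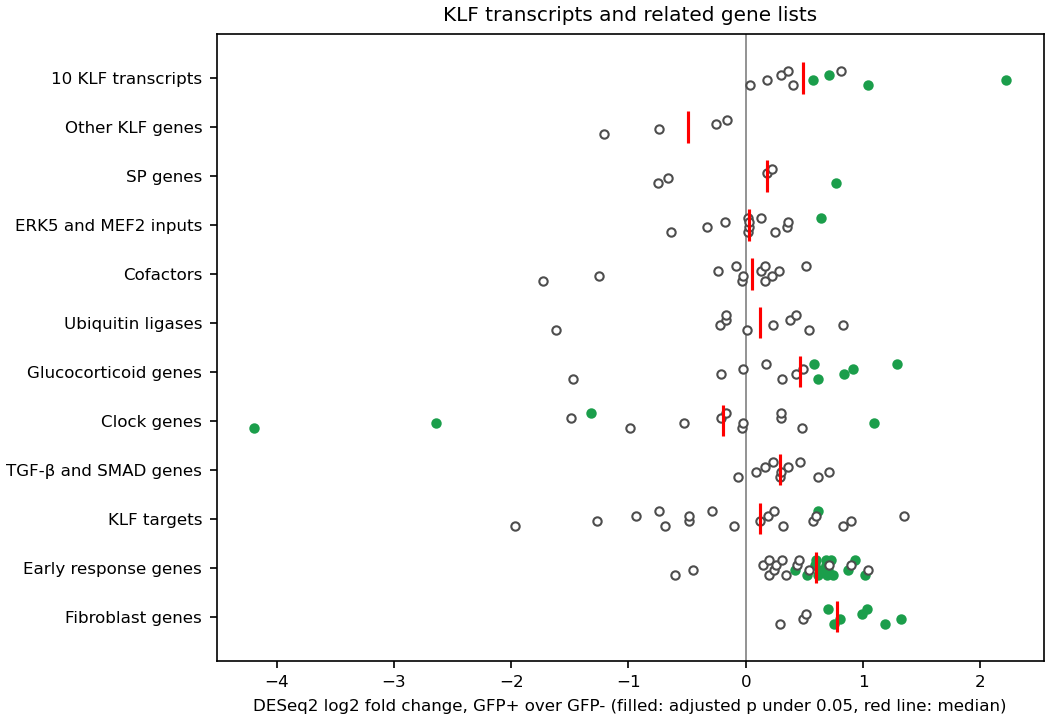
DESeq2 log2 fold change, GFP+ over GFP- (x axis), of each tested gene in the KLF members and related lists, filled where the adjusted p was under 0.05, with a red line at the median of a list. The medians are 0.48 for the KLF members, 0.60 for early response genes, 0.46 for glucocorticoid genes and -0.50 for the other KLF genes.

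The genes nearest in profile to each called member were taken by the root mean square difference of centred log2(normalised count + 1) over the 8 libraries, among 8812 genes, as a description. For Klf9 these were Thbs3 (0.123), Ifitm3 (0.131) and Fst (0.133), against 0.651 for the median gene. For Klf6 they were Il6st (0.0796), the shared receptor chain of the IL-6 family, Ssr3 (0.0842) and S100a6 (0.115), against 0.595. Klf4 was nearest to Cds2 (0.0854), Ppp1r15a (0.105), a stress response gene, and Antxr1 (0.11), against 0.517, and Klf2 ranked 62 of 8811 for it. Klf5 had no neighbour as close, with Crocc2 (0.365), Vegfd (0.473) and Cmklr1 (0.493), against 1.39.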

How the data were processed

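The 8 libraries, 4 GFP+ and 4 GFP-, were grouped by their labels. Per the study's methods, the authors made stranded total RNA libraries from small inputs, trimmed reads with cutadapt 3.4, mapped them to GRCm38 with STAR 2.7.3a and counted them per Ensembl gene, by strand, with featureCounts 2.0.1. The authors deposited whole-number raw counts of each gene in each library, which all values here start from. The table also holds the authors' normalised values, a score equal to the count over the DESeq2 size factor, rounded, which served only as a check of the size factors. Group means and the authors' own comparison (fold changes, p-values and adjusted p-values) were not used. Per-sample columns left unused: 0.

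Genes with a count (29043) were fitted in R 4.3.3 with DESeq2 1.42.0, group as the only term, a Wald test (two-sided), Benjamini-Hochberg adjustment and a threshold of 0.05, and 15283 had an adjusted p. edgeR 4.0.16 (quasi-likelihood) and limma 3.58.1 (voom), other size factors and filters, a replicate block and fits without 1 library were alternatives. In a single draw of simulated data with known changes, all 3 tools recovered most large changes with the right sign. There DESeq2, kept as the test the study used, made false calls at several times the rate its threshold sets, limma somewhat above it and edgeR below it. Fits without both libraries numbered 1 were added after seeing the data. Exon lengths and coordinates are from GENCODE M21 on GRCm38, which held 99.66% of identifiers. Depth was 883144 to 31666734 reads, and intervals are 95%.

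The members and gene lists were chosen with earlier results of these data known. Every member was named, with up to 3 called genes per direction from each related list by size of change, every other KLF gene with a count, and the 3 nearest profiles of each called member. No protein sequences were used here.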

Additional observations from a re-analysis of the deposited data

Results flagged for a closer look

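Within each group of 4 libraries, 20 groups in all, a library was singled out where its gap to the nearest other library passed the 95% critical value of Dixon's ratio of gap to range, which chance alone gives in about 1 in 20 groups. Klf15 in GFP+ replicate 1 was high, at 237 normalised counts against 56.8 to 69.8 in the other GFP+ libraries (gap 0.928 of the range). Klf7 in GFP- replicate 4 was low, at 534 against 636 to 648 in the other GFP- libraries (gap 0.89 of the range).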

How the results depend on the processing

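Of 170 member fold changes recomputed under the alternatives, 147 kept their direction and side of the threshold, 17 fell short of it and 6 turned, all 6 of Klf15. The number of members that rose, 4 in the report, was 2 with edgeR, 2 without independent filtering, 2 at an adjusted p under 0.01 and 2 at a log2 fold change of at least 1, and 2 to 4 without 1 library. The number that fell was 0 throughout. Over all genes, 712 rose, against 405 with edgeR, 419 at 0.01, 374 at a log2 fold change of at least 1 and 456 to 932 without 1 library, and 727 fell, against 327, 425 and 550 in those settings and 469 to 893. Klf15 turned to -0.42 with limma voom, to -0.22 with the replicate block and to -0.62 without both libraries numbered 1. Leaving out 1 library gave -0.69 (GFP+ replicate 1) to 0.246 (GFP+ replicate 3) for it, with -0.015 and -0.01 when GFP- replicate 4 or 2 was left out. The cause was not tested.

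Libraries share replicate numbers across groups, and the main fit did not pair them by number. Deviations of same-numbered libraries correlated at 0.0503, -0.158, -0.122 and 0.262 over 8812 genes, and not every library was closest to its own number. The value of 0.262 was above that of every pair with different numbers, of which the highest was 0.171. These correlations rest on few libraries of unequal depth, so they cannot exclude that same-numbered libraries came from the same mouse. With a replicate block 3 members rose (Klf4 had a DESeq2 adjusted p of 0.0596), as did 739 genes, and 731 fell. Depth limits Klf5, Klf10 and Klf15 most, with 6, 20 and 10 reads in GFP- replicate 3.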

Other observations

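Partners of KLF proteins showed no called change. Of 12 cofactors, among them the CtBP and histone deacetylase genes through which Klf3 and Klf9 repress, 0 were called by DESeq2 and 0 by edgeR, and the median log2 fold change was 0.06. Ctbp2, at means of 12.7 normalised counts in GFP- and 4.94 in GFP+ cells, was not tested by edgeR. Sap30 had a log2 fold change of -1.73 that was not called (DESeq2 adjusted p 0.106). Of 10 ubiquitin ligase genes, whose products include enzymes that act on Klf2, Klf4 and Klf5, 0 were called by either tool and the median was 0.12.

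Klf11 was at 4.17 normalised counts in GFP+ replicate 1, against 66.9 to 128 in the other GFP+ libraries and 76.9 to 145 in GFP- libraries, in the same library in which Klf15 was high.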
